A study of Mus musculus with 6 samples.

Results

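Noradrenaline signalling in the mouse left ventricle was followed through 8 genes. They were 3 adrenergic receptor genes (Adra1a and Adra1b for the alpha-1A and alpha-1B receptors, Adrb1 for the beta-1 receptor), the receptor kinase gene Grk5, the noradrenaline-synthesising enzyme gene Dbh, the dopamine D2 receptor gene Drd2, and the adenylyl cyclase genes Adcy5 and Adcy6. They were taken by symbol from the 24602 genes of the deposited table, and all 8 were present. Poly(A) RNA had been sequenced from the left ventricle of wild-type mice 5 weeks after transverse aortic coarctation (TAC), which narrows the aorta and loads the ventricle with pressure, or after a sham operation. There were 3 libraries per group. The sources used here give no strain, age or sex. Nor do the labels say whether the libraries of a group came from different animals, so the p-values below reflect library-to-library spread alone, and that may be technical.

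Sympathetic nerves release noradrenaline onto the heart. Beta-1 receptors couple through Gs to adenylyl cyclase, raising cyclic AMP and activating protein kinase A, which speeds and strengthens the beat. Alpha-1 receptors couple through Gq to phospholipase C. Receptor kinases of the GRK family phosphorylate occupied receptors and so end their signal. Noradrenaline is made from tyrosine by tyrosine hydroxylase, the decarboxylase encoded by Ddc and the dopamine hydroxylase encoded by Dbh.

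Library totals ran from 64023153 to 69992502 estimated counts. Among the 24602 genes, 8795 had a mean FPKM (fragments scaled to transcript length and library size) of 1 or more and were tested with edgeR's quasi-likelihood test. A gene is called here when its Benjamini-Hochberg adjusted p was under 0.05. The calls made up 6.99% of the tested genes, 4.71% higher and 2.29% lower in TAC. Higher genes were 67.3% of the calls, 77.2% under upper-quartile scaling, 52.5% after trends with GC content and transcript length had been removed from each library, and 34.0% in limma on log2(FPKM + 1). Genes in the top GC quartile (55.8% or more) lay 0.04 to 0.17 above their mean log2 level in the sham libraries and 0.03 to 0.18 below it in the TAC libraries. Those in the bottom quartile (47.9% or less) lay 0.09 to 0.34 below their mean in sham and 0.14 to 0.29 above it in TAC. Transcripts of the mitochondrial chromosome took 14.8 to 19.2% of the counts in sham and 22.6 to 29.2% in TAC. Of 5 pressure-load markers 4 rose (Nppa, Nppb, Acta1 and Ankrd1). Nppb was at 116 ± 16.1 CPM (counts scaled to library size by TMM; SD, n = 3 each) in sham against 345 ± 43.3 CPM in TAC, and Acta1 at 453 ± 213 against 3600 ± 1090 CPM, the Acta1 call being lost without sham replicate 2 (0.0986). The other, Myh7, did not pass (1360 ± 678 against 3330 ± 3550 CPM, edgeR adjusted p = 0.262), with TAC replicate 3 at 7430 CPM and the other TAC libraries within the sham range. The GC content of the 8 genes ran from 48.4% (Grk5) to 59.5% (Adcy5).

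Among the 8 genes, 3 fell in TAC (Adra1b, Dbh and Drd2), 1 rose (Grk5), 3 did not pass (Adrb1, Adcy5 and Adcy6) and 1, Adra1a, was below the level for testing. The same 4 called genes were those whose sham and TAC libraries did not overlap, which held for 34.8% of all tested genes (17.7% with TAC higher and 17.1% with TAC lower). The genes were proposed with results of these data known, so nothing is read from their share of calls. The median log2 fold change was -0.65 over the 7 tested members and -0.01 over all tested genes. Sham replicate 2 was the highest sham library for 5 of the 8 genes (Adra1b, Adrb1, Dbh, Drd2 and Adcy5). TAC replicate 3 was the highest TAC library for 5 of the 8 (Adra1a, Adrb1, Grk5, Adcy5 and Adcy6).

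**Figure D1:**
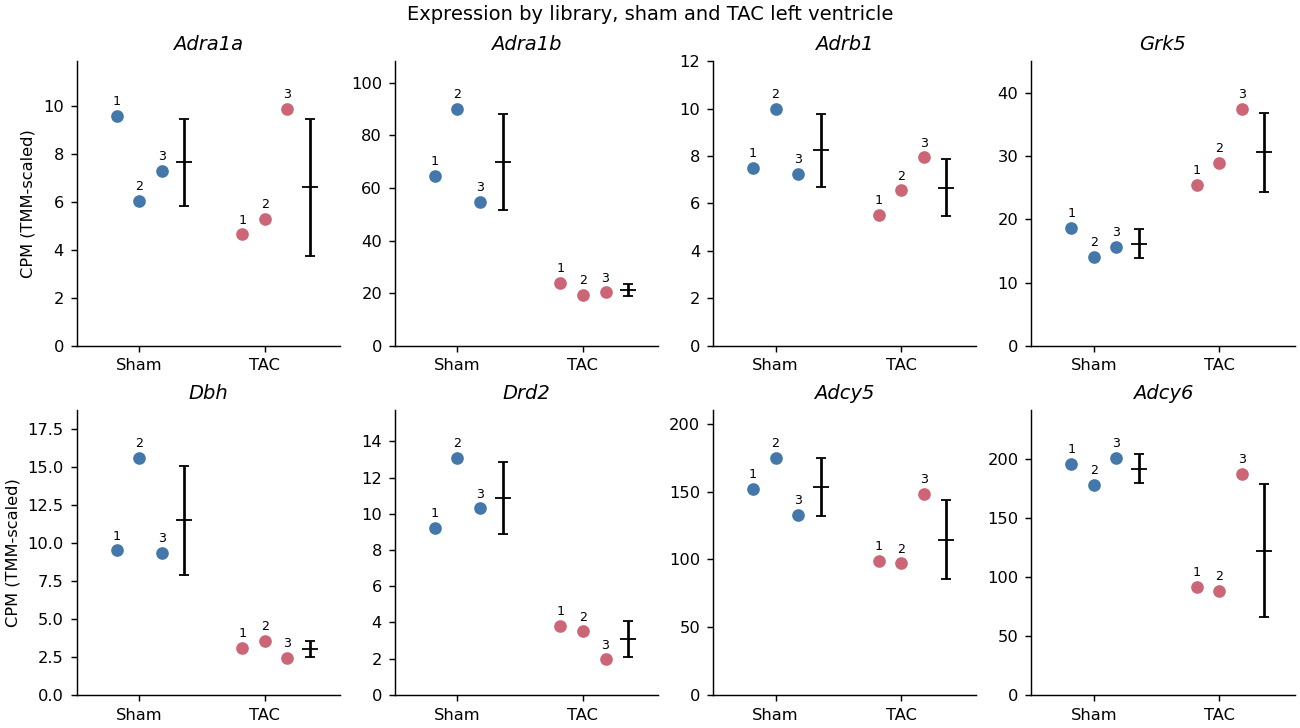
Expression of the 8 genes in CPM (vertical axes, each from 0) in sham (blue) and TAC (red) libraries. Each point is a library with its replicate number beside it, and the bar is the mean ± SD of 3. The groups do not overlap for Adra1b, Grk5, Dbh and Drd2, and TAC replicate 3 lies within the sham range for Adcy5 and Adcy6.

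Adra1b was the main alpha-1 receptor transcript, and it fell to under 24 CPM in every TAC library. On chromosome 11 (43774606 to 43901210, minus strand, GRCm38), it measured 64.7, 90.2 and 54.8 CPM in sham replicates 1 to 3 and 23.8, 19.4 and 20.3 CPM in TAC replicates 1 to 3. The lowest sham library thus stood well above the highest TAC library. The log2 fold change was -1.72 ± 0.20 (SE; edgeR adjusted p = 0.00993). It was -1.53 (adjusted p = 0.0124) with the GC and length trends removed, and the call held whichever library was left out, with log2 fold changes from -1.87 to -1.50. The record rested on 1227 to 6320 estimated counts per library. In these bulk samples fewer cells of a type and less RNA per cell cannot be told apart.

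RefSeq gives Adra1b 2 start sites, and the 250 bases before each are shown with those before Drd2, the other fallen receptor gene, because they differ in base composition. Capitals mark the GC box GGGCGG on either strand. The windows were also searched on both strands for the cyclic AMP response half-site TGACG, the GATA motif AGATAA and the MCAT motif CATTCC, and none of these 3 motifs matched in them. The motifs share no overlapping match in the windows printed. The sequences are from RefSeq (GRCm38.p6), 5′ to 3′ on the gene's strand.
Adra1b, chr11:43901238-43901487, minus strand: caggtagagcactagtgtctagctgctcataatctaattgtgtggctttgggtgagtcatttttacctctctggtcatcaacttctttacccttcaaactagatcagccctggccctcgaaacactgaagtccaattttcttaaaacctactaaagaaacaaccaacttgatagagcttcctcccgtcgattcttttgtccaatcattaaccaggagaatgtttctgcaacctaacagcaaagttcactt
Adra1b, chr11:43836490-43836739, minus strand: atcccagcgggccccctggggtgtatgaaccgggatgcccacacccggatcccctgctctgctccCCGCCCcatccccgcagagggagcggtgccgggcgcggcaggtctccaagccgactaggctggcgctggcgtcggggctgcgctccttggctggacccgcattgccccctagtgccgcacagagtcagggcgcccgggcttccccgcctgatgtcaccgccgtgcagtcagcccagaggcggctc
Drd2, chr9:49340153-49340402, plus strand: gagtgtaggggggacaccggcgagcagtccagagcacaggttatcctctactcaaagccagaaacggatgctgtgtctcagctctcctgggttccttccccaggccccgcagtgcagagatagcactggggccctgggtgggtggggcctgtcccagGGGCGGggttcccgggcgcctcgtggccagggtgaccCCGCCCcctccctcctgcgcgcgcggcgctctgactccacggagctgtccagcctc

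The window at the outer end of Adra1b held 41.6% G and C and no match, whereas that of the inner start site held 72.8% and 1 GC box, 185 bases before the start. The Drd2 window held 68.8% G and C and 2 GC boxes, 93 and 56 bases before the start. These distances are to the RefSeq starts. For none of the printed windows were the bases just after it found at the start of a GENCODE transcript of that gene. The Drd2 window ends at 49340402, and the deposited gene starts at 49340627. The GC box occurs in 32.7% of all 32851 RefSeq windows of this length, TGACG in 17.8%, AGATAA in 9.99% and CATTCC in 12.6%. The window before the RefSeq start of Dbh lies wholly within a GENCODE exon and is not printed. It held 1 TGACG match, as did that of Adrb1, 222 and 90 bases before their starts. The Adrb1 window held 1 GC box as well, and that of Adcy5 held 4. Windows were found for 6 of the 8 genes.

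The other alpha-1 genes were lower in level. Adra1d, the alpha-1D receptor gene, measured 5.36, 7.89 and 6.50 CPM in sham and 3.43, 4.41 and 2.75 CPM in TAC. These groups did not overlap either, but the difference did not pass (log2 fold change -0.90 ± 0.25, edgeR adjusted p = 0.0647), although DESeq2 and limma called it (adjusted p of 0.00994 and 0.0419). Adra1a, on chromosome 14 (66635251 to 66771168, plus strand), measured 9.58, 6.04 and 7.29 CPM in sham and 4.64, 5.30 and 9.88 CPM in TAC. TAC replicate 3 was above every sham library and the other TAC libraries below all of them. Tested with a lower limit of mean FPKM 0.5, Adra1a had a log2 fold change of -0.25 ± 0.31 (edgeR adjusted p = 0.631).

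Per length, the 3 alpha-1 genes summed to 24.8 ± 6.40 FPKM in sham and to 7.90 ± 0.490 FPKM in TAC (SD, n = 3 each). Sums of FPKM, here and below, are not scaled by TMM. Limma on FPKM put the median log2 fold change of all tested genes between -0.16 and -0.13, so such sums lean lower in TAC. The share of Adra1b in that sum was 83.0, 84.6 and 79.2% in sham and 75.2, 66.2 and 70.0% in TAC. Adra1b remained the largest part in all 6 libraries, and the shares did not overlap between the groups. An exact 2-sided permutation test gave p = 0.1 for the share and for the sum, the smallest that 3 against 3 allows (adjusted p = 0.15 for the share over the 3 shares tested).

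Alpha-2 receptor genes, whose products restrain noradrenaline release, were near the floor. Adra2a had no count in 4 of the libraries, 10 in sham replicate 1 and 4 in TAC replicate 1. Adra2b lay between 1.18 and 1.51 CPM in sham and between 0.771 and 1.06 CPM in TAC, and Adra2c between 0.290 and 0.854 CPM over all libraries. None of the 3 reached a mean FPKM of 0.5.

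The beta-1 receptor transcript differed by less than the test required. Adrb1, on chromosome 19 (56722199 to 56733113, plus strand), measured 7.49, 10 and 7.23 CPM in sham and 5.52, 6.55 and 7.94 CPM in TAC. TAC replicate 3 lay above sham replicates 1 and 3, and the other TAC libraries lay below every sham library. The log2 fold change was -0.30 ± 0.22 (edgeR adjusted p = 0.402), and -0.07 (adjusted p = 0.864) after removal of the GC and length trends. Adrb3, the beta-3 receptor gene, had 8 estimated counts in each of 2 libraries and none in the other 4.

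Adra1b stood above Adrb1 in level throughout. It was at 20.5 ± 5.90 FPKM in sham and 5.58 ± 0.600 FPKM in TAC, against 2.41 ± 0.516 and 1.77 ± 0.457 FPKM for Adrb1. In both groups every library held more Adra1b than Adrb1. In sham the order of the 8 genes by FPKM was Adcy6, Adcy5, Adra1b, Dbh, Drd2, Adrb1, Grk5 and Adra1a. The ranges of Adcy5 and Adra1b, of Dbh and Drd2, and of Adrb1 and Grk5 overlapped, as did those of Adcy6 and Adra1b, since Adra1b reached 27.1 FPKM in sham replicate 2 against 26.8 FPKM for Adcy6. In TAC it was Adcy6, Adcy5, Adra1b, Grk5, Adrb1, Drd2, Dbh and Adra1a, with overlap between Adcy6 and Adcy5, Adra1b and Grk5, Drd2 and Dbh, and either of these and Adra1a.

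**Figure D2:**
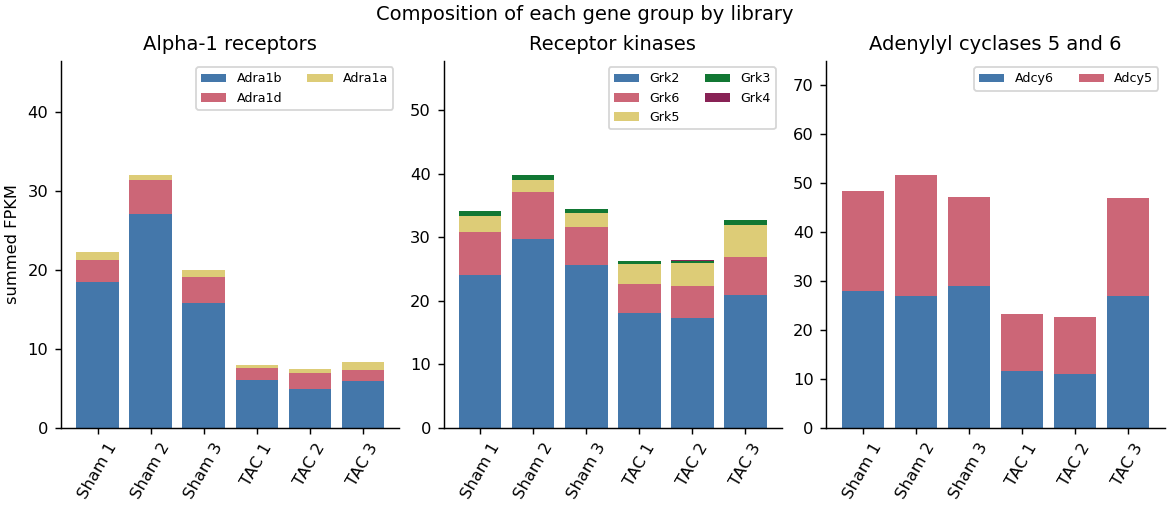
Summed FPKM (vertical axes) in each of the 6 libraries, stacked by gene, for alpha-1 receptors, receptor kinases and adenylyl cyclases 5 and 6. The alpha-1 sum is lower in all 3 TAC libraries, while TAC replicate 3 reaches 46.9 summed FPKM of Adcy5 and Adcy6, against 23.2 and 22.5 in the other TAC libraries.

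Grk5 was the member that rose. It lies on chromosome 19 (60889749 to 61095968, plus strand) and encodes a kinase that phosphorylates occupied G protein-coupled receptors. It measured 18.7, 14.1 and 15.7 CPM in sham and 25.4, 28.9 and 37.5 CPM in TAC, so that every TAC library was above every sham library. The log2 fold change was 0.92 ± 0.19 (edgeR adjusted p = 0.0352). The call was lost without sham replicate 2 (adjusted p = 0.148) or 3 (0.104) and without TAC replicate 1 (0.0739) or 2 (0.0626), in limma on log2(FPKM + 1) (0.0753), and with no filter on level (0.0606). It held (0.81, adjusted p = 0.0194) once both trends were removed.

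The other kinases and the arrestins, which bind phosphorylated receptors, did not pass. Grk2, the most abundant kinase of the family here, averaged 120 ± 9.92 CPM in the sham and 93.8 ± 2.81 CPM in the TAC libraries (log2 fold change -0.35 ± 0.12, edgeR adjusted p = 0.110), with no overlap between the groups. Grk6 had -0.22 ± 0.14, Arrb1 -0.19 ± 0.14 and Arrb2 -0.06 ± 0.19. Of the 5 tested genes of this list 1 rose and 4 did not pass (median -0.19 on the log2 scale). The share of Grk5 in the summed FPKM of Grk2 to Grk6 was 7.52, 5.10 and 6.34% in sham and 11.6, 13.3 and 15.8% in TAC (exact 2-sided permutation p = 0.1, the smallest possible; adjusted p = 0.15). The shares did not overlap between the groups, and the sum itself was 36.1 ± 3.25 FPKM in sham against 28.5 ± 3.70 FPKM in TAC.

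Dbh, which encodes the enzyme that turns dopamine into noradrenaline, was lower in every TAC library. On chromosome 2 (27165233 to 27183200, plus strand), it measured 9.50, 15.6 and 9.32 CPM in sham and 3.08, 3.53 and 2.45 CPM in TAC. The TAC libraries were close to each other and all below the sham libraries. The log2 fold change was -1.92 ± 0.27 (edgeR adjusted p = 0.0216), and -1.72 (adjusted p = 0.0151) with the GC and length trends removed. Without sham replicate 2 or without TAC replicate 1 the direction held and the call did not (adjusted p of 0.0667 and 0.0555).

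Ddc, which encodes the decarboxylase acting one step before Dbh, was lower as well. Its estimated counts were 353, 421 and 343 in the sham libraries but 78, 35 and 104 in the TAC libraries, or 5.47 ± 0.472 and 1.12 ± 0.496 CPM. Its mean FPKM was below 1, so it was not in the main fit. It reached a limit of 0.5 through the sham libraries (1.21 ± 0.138 FPKM, against 0.226 ± 0.110 FPKM in TAC). In the fit with that limit it fell (log2 fold change -2.32 ± 0.35, edgeR adjusted p = 0.0212). In that fit 6.96% of 10707 genes were called and 2.45% were called lower. With no filter on level it was called lower too (-2.39 ± 0.35, edgeR adjusted p = 0.0257), among 285 calls over 23834 genes.

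Other steps of the route did not pass or were near the floor. Gch1, which makes the cofactor of tyrosine hydroxylase, had -0.13 ± 0.25, Maob, a monoamine oxidase gene, 0.33 ± 0.24, and Cyb561, a vesicle cytochrome gene, 0.33 ± 0.17. The noradrenaline transporter gene Slc6a2 had 8 counts in sham replicate 3, 4 in TAC replicate 2 and none elsewhere, and the vesicular transporter gene Slc18a2 lay between 0.320 and 0.662 CPM. Pnmt, which makes adrenaline, measured 0.810 ± 0.306 and 0.513 ± 0.0455 CPM. Of 4 tested genes of catecholamine synthesis, transport and breakdown, 1 fell and 3 did not pass (median 0.10 on the log2 scale, and -0.18 after removal of the GC and length trends). Th was not analysed here.

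Drd2, a Gi-coupled dopamine receptor gene, fell in TAC. On chromosome 9 (49340627 to 49408177, plus strand), it measured 9.21, 13.1 and 10.3 CPM in sham and 3.83, 3.51 and 1.96 CPM in TAC. The groups lay far apart, with TAC replicate 3 the lowest library. The log2 fold change was -1.81 ± 0.28 (edgeR adjusted p = 0.0229), and -1.62 (adjusted p = 0.0207) after removal of both trends. The call was lost without sham replicate 2 (0.111) or 3 (0.0674), with log2 fold changes of -1.66 and -1.85. Drd1, the other dopamine receptor gene in the table, had 14 counts in TAC replicate 3 and none elsewhere.

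Markers of the cell types in which Dbh, Ddc and Drd2 are best known were counted beside them. Of 11 sympathetic neuron or chromaffin markers in the table, 2 were tested, Dbh itself and the neuronal hydrolase gene Uchl1, which rose (1.08 ± 0.24, edgeR adjusted p = 0.0390) but was not called after removal of the GC and length trends (0.0578) or without any library other than TAC replicate 3 (0.0600 to 0.160). The summed FPKM of these markers ran from 10.7 to 14.6 in sham and from 14 to 24.2 in TAC. Most of each sum was Uchl1 (7.48 ± 1.35 FPKM in sham and 14.5 ± 5.69 FPKM in TAC), and it includes Dbh itself. Slc6a2, Slc18a2, Chga, Chgb and Prph were each under a mean of 0.1 FPKM. Schwann cell markers summed to between 2.86 and 3.77 FPKM in sham and 1.80 and 2.65 FPKM in TAC, and none was tested. The part of nerve content in the fall of Dbh was not tested.

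Some atrial markers differed between libraries within each group. Myl7, the atrial myosin light chain gene, measured 6.99, 57.6 and 41.7 CPM in sham and 42.0, 1.82 and 8.09 CPM in TAC. In the same order Dbh measured 9.50, 15.6 and 9.32 CPM in sham and 3.08, 3.53 and 2.45 CPM in TAC. The part of atrial tissue in the fall of Dbh was not tested. Of 7 tested atrial markers Nppa rose (a call kept without TAC replicate 3 and lost without any other library, 0.0594 to 0.112) and 6 did not pass (median log2 fold change -0.46). Among those 6, Kcnk3 was lower in every TAC library than in every sham library (367 ± 47.4 against 267 ± 4.87 CPM, edgeR adjusted p = 0.0816). DESeq2 called Kcnk3. Conduction system markers summed to between 21.8 and 28.9 FPKM in sham and between 13.1 and 19.8 FPKM in TAC. Of 5 tested, the T-type calcium channel gene Cacna1g fell (-1.15 ± 0.20, edgeR adjusted p = 0.0257; 0.0600 to 0.115 without sham replicate 2, TAC replicate 1 or TAC replicate 2) and 4 did not pass, among them the pacemaker channel gene Hcn4 (24.6 ± 8.02 against 11.3 ± 2.71 CPM, adjusted p = 0.0506). Hcn4 was called lower by DESeq2, with the limit of mean FPKM 0.5 (edgeR adjusted p = 0.0441) and without TAC replicate 3. The part of conduction tissue in the falls of Dbh, Drd2 and Adra1b was not tested. Myl2, the ventricular myosin light chain, averaged 10100 ± 1510 CPM in the sham and 9180 ± 2600 CPM in the TAC libraries, as the tissue label implies. None of 9 ventricular cardiomyocyte markers was called by edgeR, DESeq2 or limma, and 0 had an unadjusted p under 0.05. Their summed FPKM nevertheless did not overlap, at 26600 to 30600 in sham and 19000 to 24000 in TAC. FPKM is not scaled by TMM, and limma on FPKM put the median log2 fold change of all tested genes between -0.16 and -0.13. In the TMM-scaled edgeR fit the median of these markers was -0.14, beside -0.01 for all tested genes. Myh6, the alpha myosin heavy chain gene, was below the sham range in every TAC library (29900 ± 3920 against 21600 ± 4430 CPM, edgeR adjusted p = 0.189). Tnnt2, the cardiac troponin T gene, was above the sham range in every TAC library (3330 ± 437 against 4240 ± 364 CPM, edgeR adjusted p = 0.210). The groups overlapped for the other ventricular markers. Fibroblast markers summed to between 53.7 and 75.8 FPKM in sham and between 69.4 and 205 FPKM in TAC, and 3 of 8 rose (Dcn, Lum and Postn), of which Postn alone was called after removal of the trends. Each of these 3 calls was lost without sham replicate 2 or 3, and those of Dcn and Lum also without sham replicate 1 or TAC replicate 1 (0.0503 to 0.166). Postn reached the mean FPKM of 1 through the TAC libraries (3.57 ± 3.54 FPKM, against 0.199 ± 0.127 FPKM in sham), with TAC replicate 3 at 7.66 FPKM. Without TAC replicate 3 it was below that limit and was not tested. Of 8 endothelial markers 1 rose, Tek, while DESeq2 called 3 (Tek, Emcn and Fabp4) and 5 were called higher without TAC replicate 3. Of 9 smooth muscle and pericyte markers 2 rose, and 4 were called higher without TAC replicate 3. Calls were more common in both of these other fits for any gene. DESeq2 called 1031 of 8795 genes higher, and 804 of 8650 were called higher without TAC replicate 3. In the main fit 414 of 8795 were. Of 6 macrophage markers edgeR called 0, with 1, Lyz2, at an unadjusted p under 0.05 and called by DESeq2. The part of these cell types in the members' values was not tested.

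**Figure D3:**
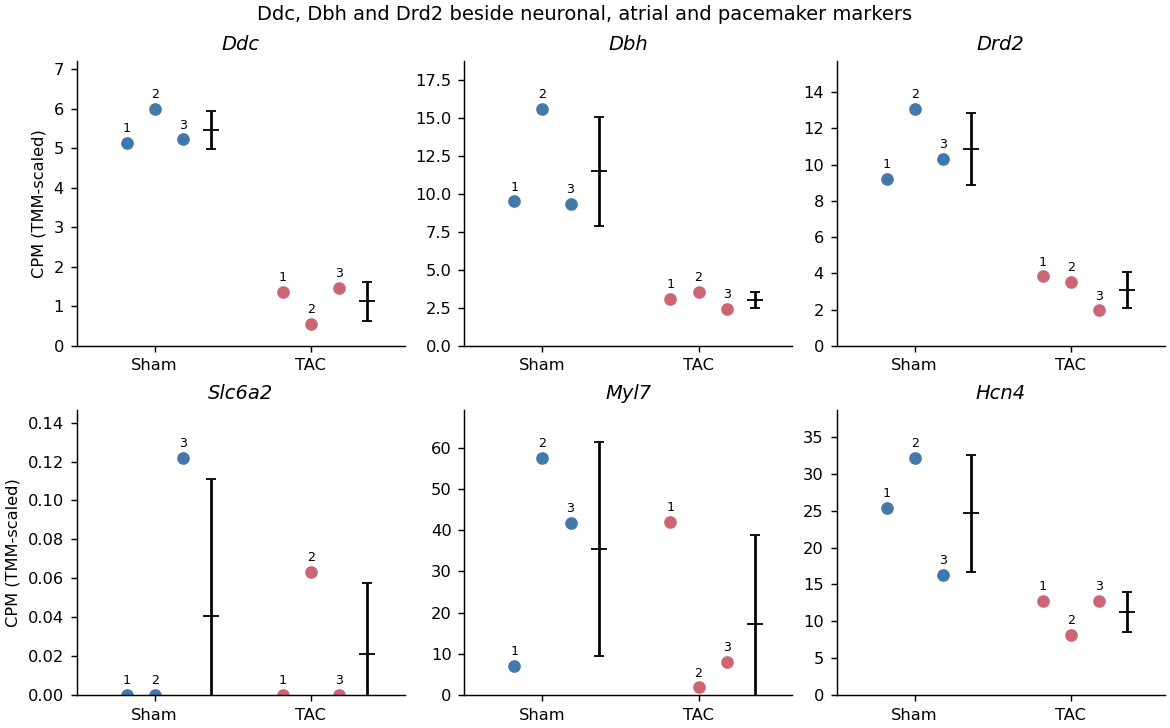
Expression in CPM (vertical axes, from 0) of Ddc, Dbh and Drd2 and of 3 markers, Slc6a2 (noradrenergic neuron), Myl7 (atrium) and Hcn4 (pacemaker cell). Points are libraries with their replicate numbers, bars the mean ± SD of 3 (cut at 0). Slc6a2 stays under 0.13 CPM, Myl7 is spread within both groups, and Hcn4 is lower in every TAC library than in every sham library.

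Adcy5 and Adcy6, the main cyclases of cardiomyocytes and the 2 genes of highest mean FPKM among the 8 in both groups, split the TAC libraries. Adcy5 on chromosome 16 (35154877 to 35305738, plus strand) measured 152, 175 and 133 CPM in sham and 98.6, 97.0 and 148 CPM in TAC. Adcy6 on chromosome 15 (98589973 to 98610076, minus strand) measured 196, 178 and 201 CPM in sham and 91.3, 87.8 and 187 CPM in TAC. For both genes TAC replicate 3 lay within the sham range and the other TAC libraries below it. TAC replicate 3 also stood apart over all tested genes. The mean chi-square per gene between the counts of a pair of libraries was 71.1 for TAC replicates 1 and 2. It was 418 and 490 for TAC replicate 3 against them, and 133 to 406 among the sham libraries. With all libraries neither passed (Adcy5 -0.42 ± 0.20, edgeR adjusted p = 0.207; Adcy6 -0.65 ± 0.28, adjusted p = 0.172).

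Without TAC replicate 3 both cyclases were called lower in TAC, with log2 fold changes of -0.65 for Adcy5 (edgeR adjusted p = 0.0190) and -1.09 for Adcy6 (adjusted p = 0.00337). In that fit 19.5% of 8650 genes were called and 10.2% were called lower, so a call was more common there for any gene. In limma with all libraries the adjusted p was 0.135 for Adcy5 and 0.0995 for Adcy6. Of the exonic bases of Adcy6, 8.9% overlap a record on the other strand. The share of Adcy5 in the summed FPKM of both was 42.3, 48.1 and 38.5% in sham and 50.5, 51.0 and 42.8% in TAC (exact 2-sided permutation p = 0.2, adjusted p = 0.2).

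Among the other cyclases, Adcy9 followed the same split, at 11.4, 7.86 and 7.19 CPM in sham and 4.13, 4.07 and 15.1 CPM in TAC (log2 fold change -0.18 ± 0.50). Adcy4 was the reverse in TAC, at 38.0, 41.4 and 18.3 CPM, against 30.0 ± 1.92 CPM in sham (0.12 ± 0.28). None of 4 tested cyclases was called (edgeR), 1 of them, Adcy6, had an unadjusted p under 0.05 (0.0467), and DESeq2 and limma also called 0. Without TAC replicate 3, 3 of 4 were called lower, Adcy5, Adcy6 and Adcy9.

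**Figure D4:**
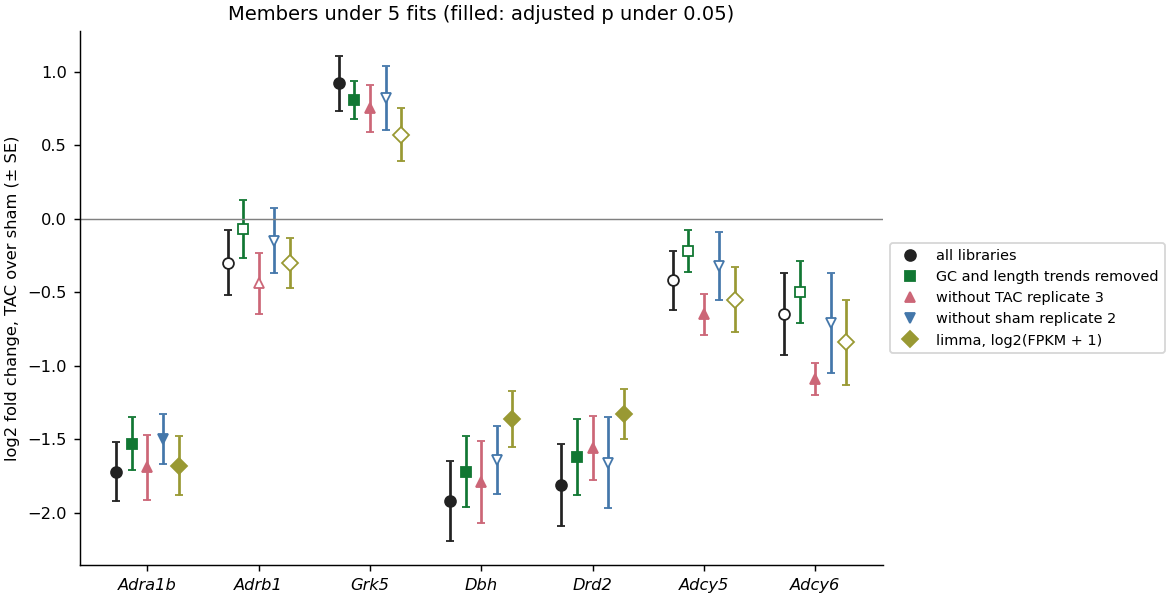
Log2 fold change of TAC over sham ± SE (vertical axis) of the 7 tested members under 5 fits, shown by symbol. Filled symbols have an adjusted p under 0.05. Adra1b is filled in all 5, Dbh and Drd2 are open without sham replicate 2, and Adcy5 and Adcy6 are filled without TAC replicate 3.

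Downstream of the cyclases, 1 of 2 tested catalytic subunit genes of protein kinase A fell. Prkaca measured 304, 357 and 326 CPM in sham and 195, 188 and 212 CPM in TAC, with no overlap (log2 fold change -0.73 ± 0.13, edgeR adjusted p = 0.0262). This call held without sham replicate 1 (0.0410) and without TAC replicate 3 (0.00917) and was lost without each other library (0.0671 to 0.119). The other, Prkacb, did not pass (12.9 ± 2.12 against 17.0 ± 4.89 CPM, log2 fold change 0.40 ± 0.23, edgeR adjusted p = 0.303). Popdc3, which encodes a cyclic AMP-binding Popeye protein, rose from 17.0 ± 1.76 to 27.9 ± 3.13 CPM (0.72 ± 0.16, adjusted p = 0.0387), a call kept without TAC replicate 3 (0.0199) and lost without any other library (0.0674 to 0.158). With every library it was called in 5 of 12 alternatives and lost in limma on log2(FPKM + 1) (0.0606), with edgeR's own filter on counts (0.0591) and with no filter (0.0870). Of the 12 tested genes of this list 1 rose, 1 fell and 10 did not pass, with a median of 0.43, and 0.06 once the GC and length trends were removed.

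Among 11 tested protein kinase A targets of the cardiomyocyte, 2 fell, none rose and 9 did not pass. Kcne1 and Kcnq1 encode the subunits of the slow delayed rectifier potassium channel, whose current grows under adrenergic drive. Kcne1 had -2.23 ± 0.25 (edgeR adjusted p = 0.00989) and Kcnq1 -0.87 ± 0.18 (adjusted p = 0.0341). The Kcnq1 call was lost with the GC and length trends removed (0.0672) and without any library other than TAC replicate 3 (0.0503 to 0.138), and the Kcne1 call without sham replicate 2 (0.0525). Pln, the phospholamban gene, averaged 1160 ± 87.9 CPM in the sham and 1280 ± 72.5 CPM in the TAC libraries (0.14 ± 0.14). None of 6 tested alpha-1 effector genes was called by edgeR (median 0.04, and 0.22 after removal of the trends), 2 had an unadjusted p under 0.05 (Dgkz and Prkce), and DESeq2 called 1, Prkce, a protein kinase C gene. The most abundant of these were Gna11, a Gq-family subunit gene (139 ± 8.04 and 118 ± 6.25 CPM, adjusted p = 0.256), and the diacylglycerol kinase gene Dgkz (86.6 ± 3.04 and 69.0 ± 1.88 CPM, adjusted p = 0.113).

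Over the 8 signalling lists, 46 genes were tested, of which 2 were called higher and 6 lower, with the median at -0.07 on the log2 scale. That is 17.4% called, beside 6.99% of all tested genes (4.71% higher and 2.29% lower), and the lists hold the members, so nothing is read from it. The 8 were Adra1b, Drd2, Grk5, Dbh, Prkaca, Popdc3, Kcnq1 and Kcne1.

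**Figure D5:**
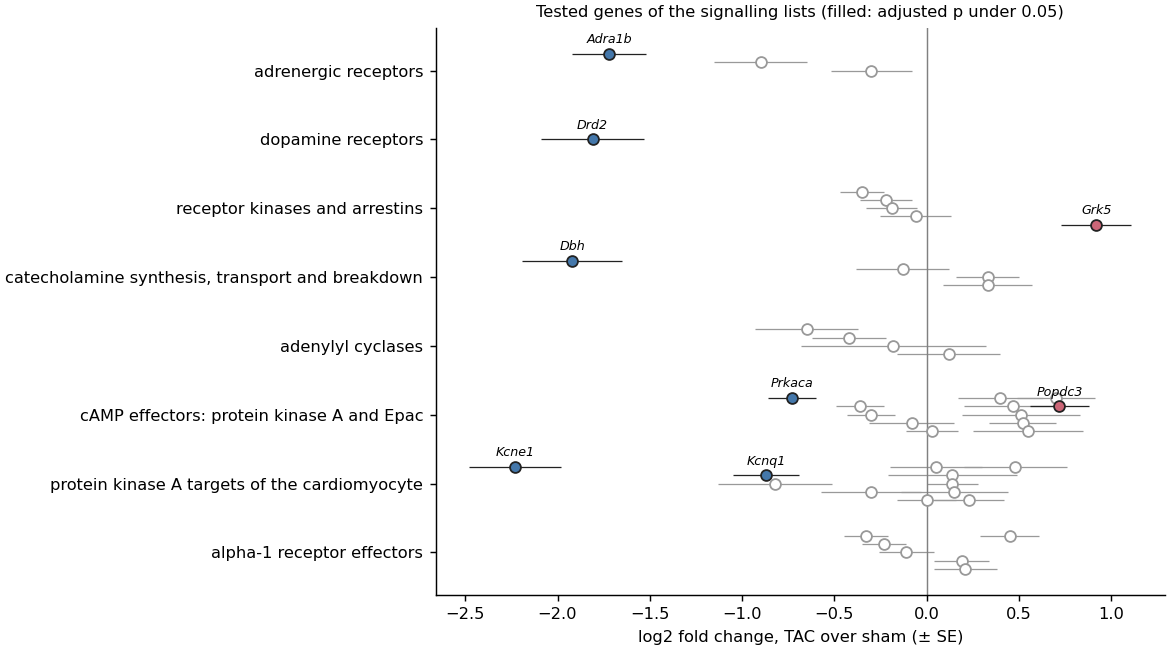
Log2 fold change of TAC over sham ± SE (horizontal axis) of the 46 tested genes, by list. Filled, named points have an adjusted p under 0.05 (red higher, blue lower in TAC) and open grey points did not pass. The points farthest from 0 are Kcne1, Dbh, Drd2 and Adra1b, all on the lower side.

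The tested genes most like each called member by Pearson's correlation of log2 CPM over the 6 libraries are given as a description, since both groups are within those 6 points and share depth and base composition. For Adra1b they were Pla2g5 (r = 0.998), Ipo13 (0.998) and Agpat3 (0.997), and for Dbh they were Impa2 (0.999), Entpd6 (0.997) and Nudt3 (0.995). For Drd2 they were Dhrs7c (0.999), Acaa2 (0.998) and Rxrg (0.998), and for Grk5 they were F2r (0.997), Mal (0.997) and Tmem62 (0.995). The genes like the 3 fallen members were themselves lower in TAC, from -0.60 for Nudt3 to -1.24 for Pla2g5, and each was called. A shared direction follows from picking genes by correlation over both groups, so nothing is read from it. Of those like Grk5, Tmem62 did not pass (0.67 ± 0.20, edgeR adjusted p = 0.0782). F2r, the thrombin receptor gene, rose by 1.69 ± 0.33 on the log2 scale (edgeR adjusted p = 0.0301), a call lost without sham replicate 2 or 3 and without TAC replicate 1 or 2 (0.0573 to 0.130).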

How the data were processed

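The authors deposited FPKM and estimated counts per gene for 6 libraries, per the file headers. The labels' protocols describe oligo(dT) selection and dUTP marking of the second strand. Cutadapt 1.9, HISAT2 2.0.4, StringTie 1.3.4d and the build GRCm38 are named in the submitters' processing notes. The sources used here do not give how the counts were made or whether strand was used. The counts were whole numbers and were treated as estimates, so counting error understates their uncertainty.

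Groups came from the sample titles. Genes whose mean FPKM reached 1 were scaled by TMM and tested with edgeR 4.0.16 (glmQLFit, glmQLFTest; R 4.3.3), 3 sham against 3 TAC with no block, and p-values were adjusted by Benjamini-Hochberg across every tested gene. The standard error is the log2 fold change divided by the square root of F, an approximation. Shares were compared by exact 2-sided permutation over libraries (scipy 1.17.1). GC content and length are those of each gene's longest GENCODE M21 transcript (24547 of 24602 identifiers matched). Their trends were removed by lowess (span 0.3, 3 rounds) as offsets. Alternatives were DESeq2 1.42.0, limma 3.58.1 on log2(FPKM + 1, 0.5 or 0.1), other scalings and filters, a replicate block and leaving out each library. On simulated counts for 8795 genes 57% of 2-fold and 97% of 4-fold changes were recovered by edgeR, with 9 false calls. The simulation changed 100 genes per fold size and held no GC trend or other effect shared within a library. These rates therefore need not hold for the real libraries.

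The members and gene lists were chosen with earlier results of these data known. Some genes of the lists, and the share that needs one of them, are not reported here and were left out of the list counts. Named were all members, the called genes of each list (or the 2 most abundant where none was), and the 3 genes most like each called member. Adra1d, Ddc, the non-called relatives of the members and the GC box motif were added after values or sequences were seen.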

Additional observations from a re-analysis of the deposited data

How the results depend on the processing

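Adra1b was called lower in all 12 alternatives with every library and in all 6 that left out 1. Dbh and Drd2 were called in all 12 with every library and in 4 of 6 without 1 library, and Grk5 in 6 of 12 and 2 of 6. Adrb1 was called in none. Between 1 and 6 members were called when 1 library was left out, against 4 with all; between 1 and 12 of the signalling genes, against 8; and between 12 (without sham replicate 2) and 1683 (without TAC replicate 3) of all genes, against 615. DESeq2 called 1648 genes and edgeR without a filter 285; the cause of these shifts was not tested. The FPKM-based limma fits moved the median log2 fold change of all tested genes to between -0.16 and -0.13. With 1 library left out the differences in share (TAC minus sham, percentage points) ran from -14.2 to -9.69 for Adra1b, 2.90 to 7.78 for Adcy5 and 6.13 to 8.21 for Grk5. Same-numbered libraries correlated at -0.10, 0.14 and -0.06 in their deviations from the group means, and not every library correlated best with its own number. The labels do not say whether same-numbered libraries are paired. These correlations cannot decide it, because deviations from a mean of 3 libraries depend on each other. With the replicate block 183 genes and 4 signalling genes were called, and 174 and 4 with the trends removed as well. Under the block Grk5 was not called (adjusted p = 0.0647) and the 3 fallen members were.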

Other observations

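Genes of the same pathways that lie between a mean FPKM of 0.5 and 1 were outside the main fit and were tested with the lower limit. Plcb4 and Plcb2, phospholipase C genes of the Gq pathway, differed in direction there. Plcb4 rose from 3.02, 1.54 and 3.51 CPM in sham to 9.66, 5.39 and 8.58 CPM in TAC (log2 fold change 1.51 ± 0.34, edgeR adjusted p = 0.0374). Plcb2 fell from 4.53, 4.77 and 5.48 to 2.21, 1.91 and 3.04 CPM (-1.08 ± 0.24, edgeR adjusted p = 0.0374). Each reached the limit through the group where it was higher. Plcb4 was at 0.29 ± 0.106 FPKM in sham and 0.781 ± 0.237 FPKM in TAC, and Plcb2 at 0.731 ± 0.0753 and 0.325 ± 0.104 FPKM. Plcb3, another gene of this family, was in the main fit and did not pass (-0.11 ± 0.15, edgeR adjusted p = 0.689). Rapgef4, which encodes the cyclic AMP-activated exchange factor Epac2, rose from 5.14, 3.53 and 5.14 to 8.66, 8.15 and 11.8 CPM (1.01 ± 0.23, edgeR adjusted p = 0.0395). With no filter on level none of these 3 passed (adjusted p of 0.0613, 0.0544 and 0.0691). Stmn2, a neuronal growth gene among the sympathetic markers, rose from 3.36 ± 0.552 to 6.94 ± 1.21 CPM (1.01 ± 0.22, edgeR adjusted p = 0.0373; 0.0713 with no filter). Maoa, a monoamine oxidase gene, was below that limit, at 1.34 ± 0.360 CPM in sham and 2.60 ± 0.542 CPM in TAC.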
